A study of Mus musculus with 9 samples.

Results

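The transcriptome of wild-type bone marrow colonies grown in interleukin-7 was described from 3 libraries of the 9 in the series, the 3 whose labels give wild type as the genotype. Of 23398 rows in the deposited table of raw FPKM, 23279 were used, after 92 spike-in rows and 27 rows with calendar dates in place of gene symbols were set aside. FPKM counts sequenced fragments for each kilobase of a transcript and for a fixed number of mapped fragments, so levels of different genes can be set side by side.

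The wild-type animals were littermates aged 6 to 8 weeks with no transgene or extra chromosome segment named in their labels, and no source used here gives their strain background. Their marrow was freed of red cells, plated in methylcellulose with interleukin-7, and harvested by pooling colonies on day 7. Equal cell numbers went into TRIzol, each RNA received 1 µl of a 1:1000 dilution of ERCC spike-in RNAs, and polyadenylated RNA was made into TruSeq libraries. The other groups carried overexpressed Hmgn1 or the Ts1Rhr segment and were not analysed here. The labels number the libraries as biological replicates without naming the animals, so the spread given below may be partly technical. With a single group there was no contrast and no test: each value is given for replicates 1, 2 and 3 in that order, or as mean ± SD with n = 3.

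Interleukin-7 is the stromal cytokine that keeps early B cell precursors of mouse marrow alive and dividing, through a receptor made of Il7r and the common gamma chain Il2rg. Pro-B cells are the stage at which the immunoglobulin heavy chain gene is being rearranged by the Rag recombinase, under transcription factors such as Pax5 and Ebf1. The surrogate light chain proteins Vpreb1, Vpreb2 and Igll1 pair with the new heavy chain to form the pre-B receptor. Cells of other lineages in plated marrow, above all macrophages, can also survive in such cultures.

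The libraries agreed closely in how many genes they contained. Per library, 10824 to 10893 rows reached 1 FPKM and 736 to 802 rows reached 100 FPKM. Over the rows whose mean over the 3 libraries reached 1 FPKM, the median level in a library lay between 12.5 and 12.8 FPKM. Pearson's r between libraries, across rows whose mean reached 1 FPKM and on the log2(FPKM + 0.1) scale, was 0.945 to 0.951, where genes are not independent replicates. In all 3 libraries together, 10397 rows, 44.7% of the rows used, stood at 1 FPKM or more, and 24.7% stood at 10 FPKM or more. At the other end 38.8% were under 0.1 FPKM in every library, and 8062 rows, 34.6%, were listed at 0 in every library. These shares are the background for the counts in each gene list below.

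The top of the ranking was occupied by genes of phagocytes and iron storage, not by B cell genes. Lyz2, the lysozyme of macrophages and granulocytes, was first, at 30708, 20218.5 and 20219 FPKM. The ferritin light chain Ftl1 was next at 23352.5, 16636 and 15315 FPKM, before the ferritin heavy chain Fth1 at 15260, 11001 and 10105 FPKM. All 3 of these were highest in replicate 1. Fabp5, a fatty acid binding protein, followed at 12564, 8676 and 11204 FPKM. The lysosomal protease Ctsd stood at 7650 ± 1274 FPKM, the saposin precursor Psap at 6285 ± 1383 FPKM, the calcium-binding protein S100a6 at 5305 ± 2981 FPKM and the phagocyte membrane protein Gpnmb at 5239 ± 1052 FPKM. S100a6 was the least even of these, with 8713 FPKM in replicate 1 against 4023 and 3180 FPKM in the others.

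Below these came a mixture of general and phagocyte genes. The elongation factor Eef1a1 stood at 4565, 4623 and 4507 FPKM, and the thymosin Tmsb4x, which binds actin monomers, at 3945 ± 526 FPKM. Spp1, the secreted phosphoprotein osteopontin, reached 3739 ± 562 FPKM and the lysosomal protease Ctss 3717 ± 811 FPKM. Actb, cytoskeletal actin, stood at 2685, 2802 and 2740 FPKM. The rest of the 30 rows with the highest means were Ppia, Sh3bgrl3, Ndufa4, Ctsb, Vim, B2m, Lyz1, Lars2, Rps3a1, Cfl1, Rpl38 and Gnas, with means from 2146 down to 1399 FPKM, and 5 rows of small or ribosomal RNA, 4 of which are described further on. Among the 100 rows with the highest means, 14 were cytosolic ribosomal protein genes, 9 were small or ribosomal RNA rows, 5 were members of the macrophage list, 3 were pseudogene rows and 3 were lymphoid list members, Cd24a, Vpreb3 and Cd9.

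The summed FPKM was concentrated in few rows, most so in replicate 1. Its 179 highest rows held 50% of the sum, against 310 and 307 rows in replicates 2 and 3. The 100 highest rows held 43.6%, 36.7% and 37.1%. Of these, 78 rows were among the 100 highest of every library and 122 were so in at least 1 library. The 2 ferritin genes alone held 6.53%, 5.56% and 5.13% of the sum.

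**Figure D1:**
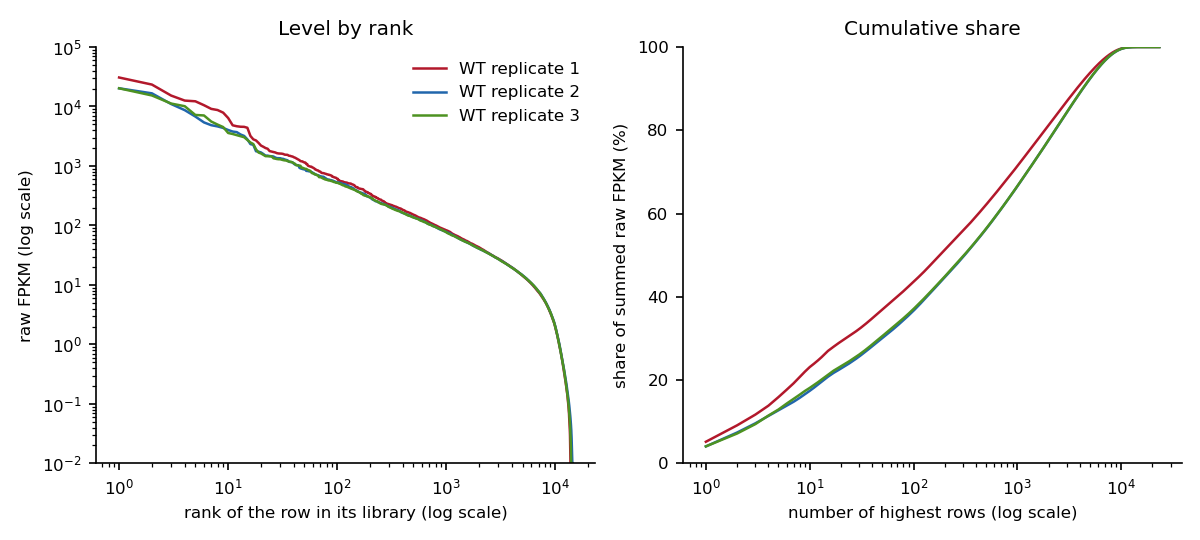
Left, raw FPKM of each row against its rank in its library, both on log scales; right, the cumulative share of the summed raw FPKM in percent against the number of highest rows, on a log scale. Each line is 1 wild-type library. The line of replicate 1 lies above the other two among the highest rows, and its 100 highest rows hold 43.6% of the sum against 36.7% and 37.1%.

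The labels name the cultures pro-B cells, and the levels of B lineage genes are given here. The lists were chosen with earlier results of these data known, so their counts do not test that label. All 16 listed B lineage transcription factors stood at 1 FPKM or more in every library, and 14 of them at 10 FPKM or more, against 44.7% and 24.7% of all rows. Myb, a factor of proliferating precursors, was highest at 169, 252 and 211 FPKM. The B cell coactivator Pou2af1 stood at 138, 191 and 177 FPKM, and Spib, an Ets factor related to PU.1, at 81.5, 124 and 114 FPKM. For these 3 factors replicate 1 was the lowest library. Pax5, which holds cells to the B lineage, stood at 57.4, 98.1 and 96.3 FPKM, and Ebf1, which opens the B cell programme, at 20.3, 42.5 and 37.7 FPKM. Lef1, at 86.8 ± 17.4 FPKM, and Cux1, at 63.6 ± 2.24 FPKM, completed the 6 highest. The lowest of the list were Bcl11a at 13.6 ± 1.07, Erg at 8.47 ± 0.883 and Pou2f2 at 4.43 ± 0.931 FPKM. Replicate 1 was the lowest of the 3 libraries for 14 of the 16 factors, against 36.6% of all rows whose mean reached 1 FPKM. This count was 5 in the authors' normalised table, where replicate 1 was lowest for 1877 of all 10890 such rows. That table is described with the library differences.

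All 6 genes of the pre-B receptor list were at 10 FPKM or more in every library. Vpreb3, a chaperone of the receptor chains, was far the highest at 867, 878 and 648 FPKM and took rank 63 of all rows. The signalling chains Cd79b and Cd79a stood at 102, 210 and 117 FPKM and at 97.5, 151 and 122 FPKM. Vpreb1 stood at 90.4, 139 and 112 FPKM, Vpreb2 at 61.5, 88.1 and 80.9 FPKM, and Igll1 at 47.6, 73.3 and 47.6 FPKM. Replicate 2 was the highest library for all 6 genes, against 32.4% of all rows whose mean reached 1 FPKM. In the normalised table it was highest for 5 of the 6, against 3246 of those 10890 rows. Vpreb1 and Vpreb2 are close copies of each other, so their split between the rows is uncertain. Immunoglobulin gene segments were not analysed here.

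Genes of V(D)J recombination, the joining of antigen receptor gene segments, were present at lower levels. All 10 listed genes stood at 1 FPKM or more in every library, and 4 at 10 FPKM or more. Dntt, the polymerase that adds untemplated bases at the joints and marks the pro-B stage, stood at 44.2, 57.6 and 50.5 FPKM. The recombinase gene Rag1 stood at 19.8, 29.1 and 31 FPKM, and its partner Rag2 at 7.81, 8.08 and 7.05 FPKM, so the Rag2 libraries differed little. The end-joining genes ran from Xrcc6 at 32.0 ± 7.35 FPKM through Dclre1c at 12.3 ± 1.99, Lig4 at 10.6 ± 1.84 and Xrcc5 at 8.18 ± 2.52 FPKM to Xrcc4 at 4.86 ± 0.514, Prkdc at 3.74 ± 0.952 and Nhej1 at 2.46 ± 0.381 FPKM.

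Surface and cytokine receptor genes of pro-B cells were all at 1 FPKM or more in every library, 14 of 15 at 10 FPKM or more. The heat-stable antigen Cd24a stood at 899 ± 176 FPKM and the tetraspanin Cd9, which macrophages also carry, at 785 ± 165 FPKM. Il7r stood at 168, 145 and 171 FPKM and its partner chain Il2rg at 70.7, 61.3 and 58.4 FPKM. Ly6d followed at 275 ± 58.0 FPKM and Cd93 at 215 ± 24.1 FPKM. The lowest were Spn (CD43) at 16.2 ± 2.83, Tnfrsf13c at 15.7 ± 2.85 and Cd2 at 10.7 ± 2.01 FPKM.

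Genes that act below the pre-B receptor were complete as well, with 12 of 12 at 1 FPKM or more. The kinase gene Syk stood at 117, 131 and 134 FPKM and the adaptor gene Blnk at 84.5, 119 and 105 FPKM. Cd180, Ptpn6, Dok3 and Lyn, with means between 109 and 90 FPKM, are also used by myeloid cells. The lowest were Fcrla at 37.6 ± 6.53, Btk at 34.1 ± 1.84 and Bank1 at 1.51 ± 0.346 FPKM.

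Genes of mature B cells were divided. In the list of later stages 10 of 15 reached 1 FPKM in every library, led by Cd37 at 135 ± 11.4, Cd38 at 86.8 ± 11.5 and Ms4a1 (CD20) at 37.8 ± 6.54 FPKM, then Cd83 at 24.2 ± 5.40 and Fcrl1 at 7.61 ± 0.963 FPKM. The complement receptor gene Cr2 stood at 0.339, 0.280 and 0.161 FPKM, and Ccr6 was above 0 in replicate 3 alone, at 0.206 FPKM. In the plasma cell list 7 of 9 reached 1 FPKM. Irf4 stood at 53.9, 85.4 and 83.3 FPKM and the syndecan gene Sdc1 at 72.8, 47.4 and 54.3 FPKM, in the opposite library order. Mzb1 at 45.9 ± 16.7, Xbp1 at 43.2 ± 5.15, Igj at 23.8 ± 5.93 and Creld2 at 15.8 ± 2.36 FPKM followed, and the lowest were the plasma cell repressor gene Prdm1 at 3.31 ± 1.07, Derl3 at 0.691 ± 0.281 and Tnfrsf17 at 0.125 ± 0.216 FPKM.

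T cell and natural killer cell genes were near the floor with a few exceptions. Of 18 T cell genes 3 reached 1 FPKM in every library. These were the costimulatory receptor gene Cd28 at 56.8, 33.5 and 44.1 FPKM, the kinase gene Lck at 13.2, 21.1 and 17.7 FPKM and Thy1 at 8.55, 6.53 and 8.46 FPKM. The next highest, Tcf7, Cd247 and Cd5, had means of 0.803, 0.663 and 0.573 FPKM. Cd3e, a chain of the T cell receptor complex, stood at 0.860, 0.484 and 0.0923 FPKM. The lowest were Foxp3 at 0.0495 ± 0.0547, Gata3 at 0.0155 ± 0.0269 and Trat1, listed at 0 in every library. Of 14 natural killer and innate lymphoid genes only Ccl5 reached 1 FPKM in every library, at 2.57, 1.63 and 1.41 FPKM, and the granzyme genes Gzma and Gzmb were listed at 0 in all 3. Klrd1, Nkg7, Ncr1, Klrb1c and Il2rb had means between 1.18 and 0.210 FPKM, and Eomes stood at 0.00676 ± 0.0117 FPKM.

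**Figure D2:**
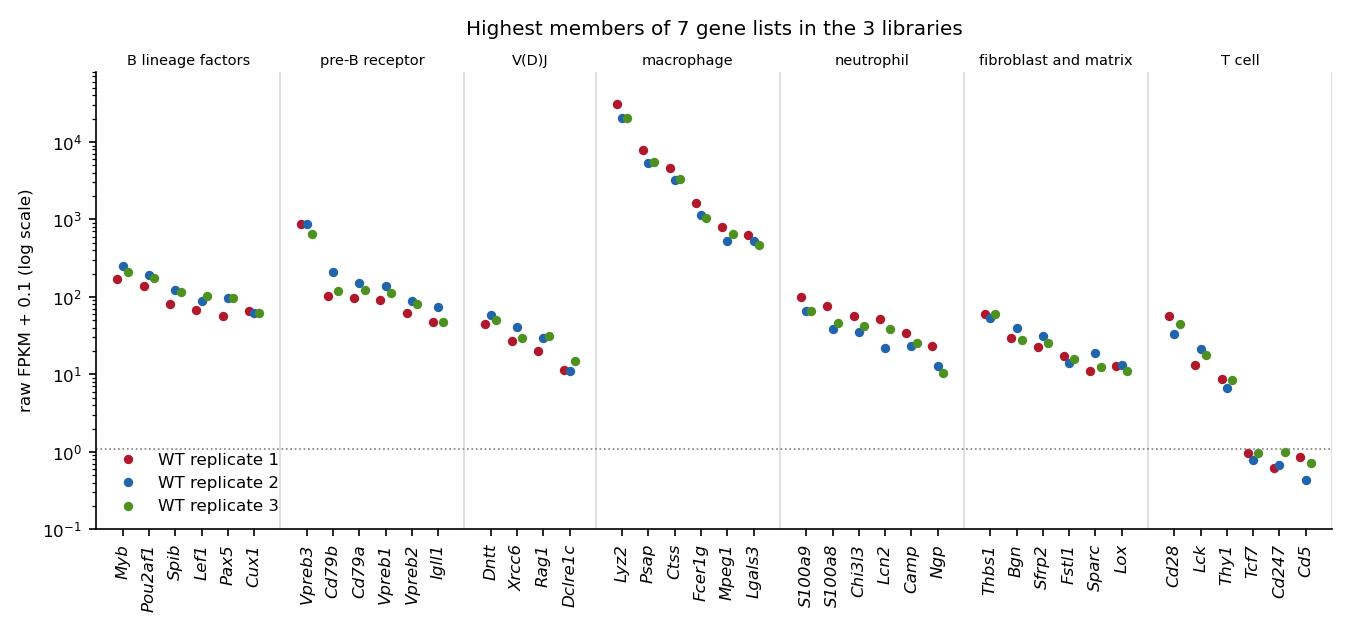
Raw FPKM plus 0.1, on a log scale, of the highest members of 7 gene lists, with 1 point per wild-type library; the dotted line marks 1 FPKM. Replicate 1 lies lowest for most B lineage genes and highest for the macrophage genes, and T cell genes after Thy1 lie under the line.

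Macrophage genes were nearly complete, and their highest member, Lyz2, stood above every member of the other lineage lists. Of 28 listed genes 27 stood at 1 FPKM or more in every library and 23 at 10 FPKM or more. After Lyz2, Psap and Ctss came the Fc receptor chain Fcer1g at 1622, 1148 and 1031 FPKM, the pore-forming protein Mpeg1 at 803, 529 and 650 FPKM and the galectin Lgals3 at 628, 521 and 471 FPKM. The receptor for the macrophage growth factor, Csf1r, stood at 220, 171 and 186 FPKM and Emr1, the F4/80 antigen, at 113, 78.7 and 103 FPKM. The lowest members were C1qa at 3.68 ± 1.49 FPKM, the high-affinity Fc receptor gene Fcgr1 at 2.18 ± 0.0670 FPKM and the fractalkine receptor gene Cx3cr1 at 0.128, 0.0493 and 0.384 FPKM. Cx3cr1 was the sole member under 1 FPKM. Replicate 1 was the highest library for 25 of the 27 members whose mean reached 1 FPKM, against 38.5% of all such rows.

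The list held 8.26%, 6.61% and 6.69% of the summed FPKM. All lymphoid lists together, 115 rows, held 1.1%, 1.48% and 1.34%, and all myeloid lists, 103 rows, held 8.58%, 6.84% and 6.96%. Without Lyz2 the myeloid share was 3.39%, 2.77% and 2.88%, still above the lymphoid share in every library. That share still held Psap and Ctss, at means of 6285 and 3717 FPKM. The order of the shares without them as well was not computed, so it may rest on a few high rows. In the medians of single genes the lists were close. The median macrophage gene stood 0.52 ± 0.59 (log2 scale, SD over the libraries) below the median pre-B receptor gene, a difference smaller than the spread between libraries and of opposite sign in replicate 1. The median macrophage gene stood 0.99 ± 0.40 above the median B lineage transcription factor on the same scale. These are bulk RNA values, in which fewer cells of a type and less RNA per cell cannot be told apart, so no cell fraction follows from a share.

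All 13 myeloid transcription factor genes reached 1 FPKM. PU.1 itself, listed as Sfpi1, stood at 66.3, 47.2 and 43.2 FPKM. Cebpa followed at 40.7 ± 4.02, Irf5 at 36.4 ± 3.14, the lipid-sensing receptor Pparg at 36.0 ± 8.87, Nr1h3 at 20.3 ± 5.08 and Tfec at 18.6 ± 5.04 FPKM. The lowest were Batf at 4.2 ± 1.82, Klf4 at 3.98 ± 0.516 and Gfi1 at 2.35 ± 0.529 FPKM. Replicate 1 was the highest library for 9 of the 13, against 38.5% of all rows whose mean reached 1 FPKM. In the normalised table it was highest for 11, against 6438 of those 10890 rows.

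Other myeloid lineages were uneven. In the neutrophil list 13 of 19 rows reached 1 FPKM, led by the calprotectin genes S100a9 at 101, 65.5 and 65.7 FPKM and S100a8 at 76.7, 38.4 and 46.3 FPKM. Next were Chi3l3 at 44.6 ± 10.7, Lcn2 at 37.4 ± 15.2, Camp at 27.3 ± 5.92 and Ngp at 15.4 ± 6.88 FPKM, genes of the secondary granules apart from Chi3l3. Mpo, Elane and Prtn3, primary granule genes of the promyelocyte, stood lower, with Mpo at 1.16, 1.42 and 1.53 FPKM. Cebpe at 0.421 ± 0.537, Ctsg at 0.0881 ± 0.153 and Stfa2l1, listed at 0, closed the list.

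Of the osteoclast list 7 of 10 reached 1 FPKM. The proton pump subunit gene Atp6v0d2 stood at 900, 454 and 562 FPKM, and the bone collagenase gene Ctsk at 119, 83.7 and 93.4 FPKM. Acp5 at 22 ± 5.47, Nfatc1 at 10.7 ± 0.373, Tnfrsf11a at 6.31 ± 0.597 and Mmp9 at 3.08 ± 0.686 FPKM followed, while Ocstamp stood at 0.112 ± 0.0968 FPKM. Calcr, the calcitonin receptor of mature osteoclasts, and Oscar were listed at 0. Mmp9 also stood in the neutrophil list.

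Dendritic, eosinophil and mast cell genes were mostly low. In the dendritic list 5 of 15 reached 1 FPKM: Irf8 at 53.0 ± 2.52, Itgax at 37.2 ± 4.66, Bst2 at 17.6 ± 1.46, Ccr7 at 8.01 ± 1.13 and Clec10a at 7.41 ± 0.383 FPKM. Cd209a followed at 1.33 ± 0.494 FPKM, and Clec9a at 0.304 ± 0.126, Ccr9 at 0.275 ± 0.101 FPKM and Klk1, listed at 0, were lowest. In the eosinophil list 3 of 9 reached 1 FPKM, with Prg2 at 2.87, 4.67 and 3.24 FPKM the highest, Siglec5 at 2.46 ± 0.427 and Il5ra at 1.42 ± 0.371 FPKM next, and Ear1 listed at 0. None of the 10 mast cell and basophil genes did so. Prss34 was their highest at 1.87, 0.174 and 1.91 FPKM, and the mast cell genes Mcpt4, Tpsb2, Cma1 and Fcer1a were listed at 0.

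Erythroid genes were low but for genes used elsewhere. In the erythroid list 2 of 16 rows reached 1 FPKM in every library and 10 were under 0.1 FPKM in all 3. These were Tfrc, the transferrin receptor of dividing cells, which the housekeeping list also held, at 131 ± 6.49 FPKM, and the carbonic anhydrase gene Car2, which osteoclasts also use, at 35.9, 55.3 and 42.5 FPKM. The globin genes Hba-a1, Hba-a2, Hbb-b1 and Hbb-b2 were listed at 0 in every library. Gata1 was above 0 in replicate 2 alone, at 0.0826 FPKM. Klf1, Rhd, Epor and Alas2 had means from 0.197 down to 0.0540 FPKM. In the megakaryocyte list 3 of 12 reached 1 FPKM, the platelet factor gene Pf4 at 36.1, 28.8 and 26.4 FPKM, the integrin gene Itgb3 at 25.6 ± 4.72 and Vwf at 12.9 ± 1.78 FPKM. Ppbp, Treml1 and Gp1ba had means of 1.16, 0.908 and 0.323 FPKM, and the platelet receptor gene Gp6 was listed at 0.

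Stem and early progenitor genes were partly present, 10 of 17 at 1 FPKM or more. Cd48, which most blood cells carry, led at 112 ± 11.7 FPKM, before the protein C receptor gene Procr at 45.2, 30.6 and 26.9 FPKM, Sox4 at 25.6 ± 4.26, Ly6a at 13.7 ± 3.49, Lmo2 at 8.62 ± 3.33 and Notch1 at 5.24 ± 0.847 FPKM. The stem cell factor receptor gene Kit stood at 2.29, 3.92 and 3.89 FPKM and was lowest in replicate 1. Fgd5 at 0.0501 ± 0.0566, Hlf at 0.0357 ± 0.0310 and Mecom, listed at 0 in all 3, were lowest. Flt3, a receptor gene of earlier lymphoid progenitors that stood in the dendritic list, was at 0.590, 0.548 and 0.477 FPKM.

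Stromal genes were present at low levels. In the fibroblast and matrix list 17 of 24 reached 1 FPKM in every library, but 6 reached 10 FPKM. Thbs1, which macrophages and platelets also make, led at 60.2, 53.3 and 59.8 FPKM. The proteoglycan gene Bgn stood at 29.2, 40.0 and 27.7 FPKM and Sfrp2, a secreted Wnt modulator, at 22.4, 31.4 and 25.5 FPKM. Fstl1 at 15.7 ± 1.58, Sparc at 14.1 ± 4.05 and Lox at 12.3 ± 1.07 FPKM followed. Col1a2 and Col1a1, the chains of type I collagen, stood at 5.70, 10.8 and 6.09 FPKM and at 0.319, 2.16 and 0.543 FPKM. Col5a1, Mmp2 and Lum were lowest with means of 0.548, 0.548 and 0.0687 FPKM. Replicate 2 was the highest library for 17 of the 20 members whose mean reached 1 FPKM, against 32.4% of all such rows. In the normalised table it was highest for 16, against 3246 of those 10890 rows.

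In the list of marrow niche genes 6 of 17 reached 1 FPKM. Spp1 and the lipoprotein lipase gene Lpl, at 1276, 812 and 1008 FPKM, are also macrophage products and held most of that list's share. Alpl, the alkaline phosphatase of bone-forming cells, stood at 9.35, 18.7 and 11.5 FPKM and was highest in replicate 2. Kitl, Runx2 and Vcam1 had means of 3.86, 3.74 and 1.60 FPKM. The niche cytokine gene Cxcl12 stood at 1.84, 1.56 and 1.02 FPKM, and the gene of the added cytokine itself, Il7, at 0.333, 0.617 and 0.150 FPKM. Ebf3 at 0.116 ± 0.152 and Lepr, the receptor that marks niche stroma, at 0.0713 ± 0.0454 FPKM were low, and Bglap was listed at 0. Of 14 endothelial genes 3 reached 1 FPKM, Pecam1 at 14.4 ± 1.1, Esam at 1.84 ± 0.909 and Kdr at 1.74 ± 0.322 FPKM. Pecam1 is also carried by leukocytes. Cdh5, the cadherin of endothelium, stood at 0.120, 0.407 and 0.555 FPKM, ahead of Tie1 and Egfl7 with means of 0.330 and 0.110 FPKM, and Sox18, Robo4 and Cldn5 were listed at 0.

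Tissues outside the marrow gave the silent end of the table. Of 86 listed genes 62, or 72.1%, were under 0.1 FPKM in every library, and 54, or 62.8%, were listed at 0 in all 3. The share under 0.1 FPKM over all rows was 38.8%. In the liver list 13 of 14 genes were listed at 0, among them Alb, Apoa1 and Ttr. The exception was Trf, transferrin, at 65.8, 51.0 and 50.1 FPKM. Among 18 neural genes the myelin gene Mbp stood at 8.05, 8.54 and 9.87 FPKM and Stmn2 at 1.33, 1.55 and 1.77 FPKM, and 11 were under 0.1 FPKM in every library. The germ line list had no member at 1 FPKM in every library, although Dppa3 at 3.34, 1.78 and 0.930 FPKM and Sycp3 at 2.15, 0.651 and 0.930 FPKM had means above it. Both were highest in replicate 1. The muscle, epithelium and pancreas lists had no member with a mean of 1 FPKM, and 11 of 14, 7 of 14 and 10 of 11 of their genes were under 0.1 FPKM in every library.

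An entry at or near 0 can also be a failed estimate. Rps27, a ribosomal protein gene that cells need, stood at 0.120, 0.995 and 0.0980 FPKM, while 63 of the 65 ribosomal protein rows stood at 10 FPKM or more. Each library listed 63 to 106 rows at exactly 0.01 FPKM, among them Gp1bb of the megakaryocyte list in all 3.

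**Figure D3:**
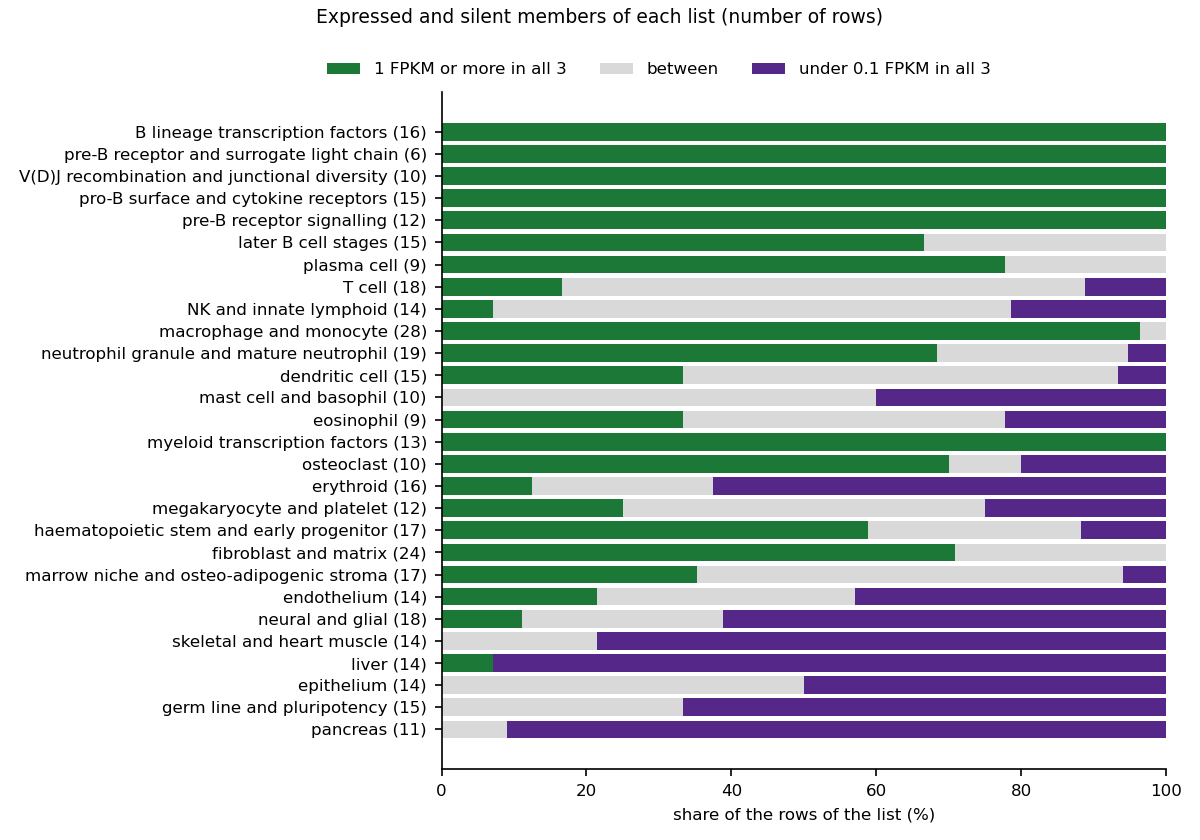
Share of the rows of each list, in percent, at 1 FPKM or more in all 3 wild-type libraries, under 0.1 FPKM in all 3, or between; the number of rows stands in brackets. The B lineage factor, pre-B receptor, V(D)J, pro-B surface and pre-B receptor signalling lists are filled to 100%, and 13 of 14 liver genes are under 0.1 FPKM.

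Dividing cells were present in all 3 libraries. All 27 proliferation genes stood at 1 FPKM or more, and replicate 2 was highest for 25 of them in the raw and 24 in the normalised table. Over all 10890 rows whose mean reached 1 FPKM replicate 2 was highest for 3524 and 3246. The topoisomerase gene Top2a stood at 181, 294 and 283 FPKM, the ribonucleotide reductase gene Rrm2 at 88.5, 143 and 135 FPKM and Mki67 at 45.9, 83.5 and 70.0 FPKM. Replicate 1 was lowest for 20 of the 27 in the raw table, but for 1 in the normalised one. Over those 10890 rows it was lowest for 3986 and 1877.

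The list medians differed between libraries. Over all 10890 rows whose mean reached 1 FPKM, the median deviation of a library from the gene's mean was at most 0.01 in size on the log2(FPKM + 0.1) scale. Replicate 1 was the highest library for 38.5% and the lowest for 36.6% of these rows, and replicate 2 was the highest for 32.4%. In the macrophage list the median deviation was 0.30, -0.20 and -0.14, and in the neutrophil list 0.34, -0.20 and -0.09. In the B lineage factor list it was -0.29, 0.17 and 0.10, and in the pre-B receptor list -0.31, 0.31 and -0.11. The fibroblast list deviated by -0.22, 0.41 and -0.15, in which replicate 2 stood highest. Not every list of a lineage deviated alike. Replicate 1 stood at 0.01 in the pro-B surface list and at 0.19 in the plasma cell list, at 0.09 in the dendritic list, and at 0.35 in the stem and progenitor list, the highest value of the 18 lists with at least 6 such members. Ribosomal protein genes deviated by -0.03, 0.22 and -0.18, with replicate 2 highest for 53 of the 64 whose mean reached 1 FPKM.

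The standing of a library depended on the scaling. In the authors' normalised table the summed FPKM were 827155, 553985 and 392907, against 591233, 496893 and 495140 in the raw one, and the 100 highest rows held 50.1%, 40.2% and 35.9%. Lyz2 stood at 56076, 26720 and 15329 FPKM there. The median deviation over all rows was 0.18, 0.03 and -0.20 in that table (log2, no pseudocount). Relative to these, the macrophage list deviated by 0.45, -0.16 and -0.28 and the neutrophil list by 0.17, -0.24 and -0.07. The B lineage factor list deviated by -0.18, 0.18 and 0.00, the pre-B receptor list by -0.17, 0.36 and -0.27, and the fibroblast list by -0.42, 0.37 and 0.05. The sign of replicate 1 was thus that of the raw table in these 5 lists, whereas for ribosomal protein genes it turned from -0.04 to 0.16, both relative to all rows. Counts over single genes moved more, and so did their background. Over all 10890 rows replicate 1 was highest for 6438 in the normalised table, against 4188 in the raw one. It was lowest for 1877 against 3986, and replicate 2 was highest for 3246 against 3524. Replicate 1 was highest for 25 of 27 macrophage genes in both tables. In the normalised one it was lowest for 5 of the 16 B lineage factors and for 1 of the 27 proliferation genes. Replicate 2 was highest there for 26 of the 64 ribosomal protein genes. The part of cell content, RNA quality or library preparation in these deviations was not tested.

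**Figure D4:**
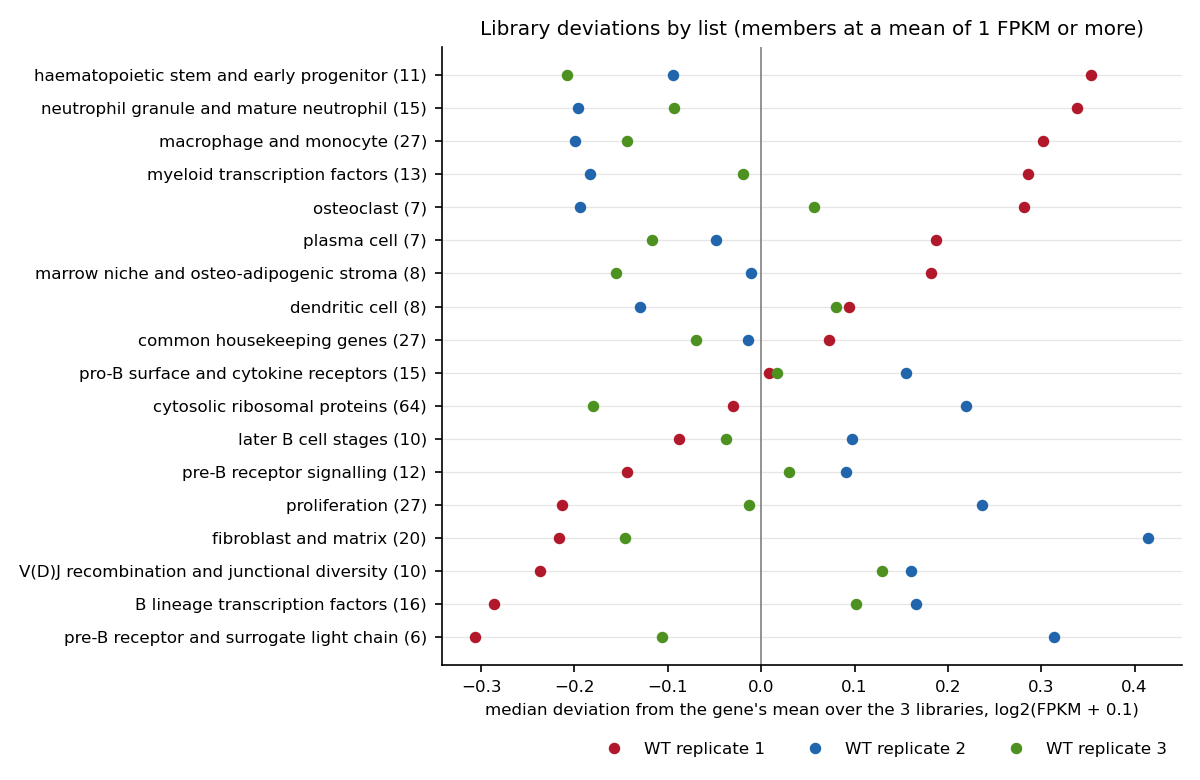
Median deviation of each wild-type library from the gene's mean over the 3 libraries, on the log2(raw FPKM + 0.1) scale, for lists with at least 6 members at a mean of 1 FPKM or more (their number in brackets). Replicate 1 lies to the right in the stem, neutrophil and macrophage lists, at 0.35, 0.34 and 0.30, near 0 in the pro-B surface list and to the left in the pre-B receptor list, at -0.31.

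For single genes the spread in raw FPKM was small. Over the 10854 rows other than small RNAs whose mean reached 1 FPKM, the median SD of log2(FPKM + 0.1) was 0.20, and 92.7% had an SD of at most 0.5. The median SD was 0.26 for means of 1 to 10 FPKM and 0.17 for means of 10 to 100 FPKM. It was 0.20 for means of 100 to 1000 FPKM and 0.23 above that. The steadiest of the rows above 1000 FPKM were Eef1a1 and Actb, with SDs of 0.02 and 0.03.

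The 15 rows with the largest spread among means of at least 5 FPKM were mostly low genes. Pira7, an immunoglobulin-like receptor gene, stood at 7.12 and 9.01 FPKM in replicates 1 and 3 and was listed at 0.01 in replicate 2. Lars2, a mitochondrial leucyl-tRNA synthetase gene, was the exception in level, at 2803, 391 and 1462 FPKM. Its libraries had the same order as those of Rn45s, the ribosomal RNA precursor, at 10510, 1184 and 3043 FPKM. The others were Lst1, Hist1h4m, Gm1673, Sap25, Rps27l, Polr2j, Cmtm8, Rpl30, AI506816, 2010107E04Rik, Ugt1a6b, 2610019E17Rik and Mettl10, with SDs from 1.31 down to 0.97.

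Rows of small and ribosomal RNAs varied most between libraries. Of 736 such rows 36 had a mean of at least 1 FPKM, and 23 of these were listed at 0 in at least 1 library. Together the 736 rows held 6.12%, 3.15% and 4.21% of the summed FPKM. Snord32a was listed at 0, 4845 and 0 FPKM and Snord83b at 4827, 0 and 0 FPKM. The matched rows among the 36 are 77 to 325 bases long, and 30 of them lie inside another gene of the table by the RefSeq annotation of GRCm38.p6, 11 of them inside a ribosomal protein gene. Those just named lie inside Rpl13a and Rpl3, respectively. On such short rows few fragments give a high FPKM, and how many of the fragments belong to the host transcripts was not tested.

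Mir705 was the highest of these rows, at 12229, 3790 and 2481 FPKM, inside Rab11fip5, whose own mean was 7.96 FPKM. Its mature microRNA is shown because the row ranked 7 of all rows. The sequence is from RefSeq, GRCm38.p6, chr6:85336341-85336360, minus strand, with the seed (bases 2 to 8) in capitals.
mmu-miR-705: gGUGGGAGguggggugggca

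Gene families showed which paralogue the cultures used. Of 102 families examined, 95 had a leading member whose mean reached 1 FPKM. In 88 of these the same member led in every library, and in 83 its lowest library was above every other member's highest. The leading member held a median of 75.5% of its family's summed FPKM, and at least 90% in 28 families. The SD of that share over the libraries had a median of 2.02 percentage points.

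Some regulators of B cell identity were among the most exclusive. Over the 17 families of lineage regulators with a leader of at least 1 FPKM, the median leading share was 66.7%. It reached 90% in 4 of them. Pax5 held 99.8% ± 0.0460 of the Pax family, with Pax6 next at 0.160, 0.193 and 0.193 FPKM and 6 of 9 members listed at 0. Ebf1 held 99.4% ± 0.559 of the Ebf family and Bcl11a 99.5% ± 0.375 of its pair, where Bcl11b, the T cell member, stood at 0.0603, 0.0140 and 0.113 FPKM. Myb held 95.1% ± 0.767 of its family. In the Sox family Sox4 held 92.5% with 9 of 19 members listed at 0. The Gata family had no member at 1 FPKM: Gata2 led at 0.0248, 0.127 and 0.299 FPKM.

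Other regulator families were shared between members. Tcf3 held 44.3% ± 0.588 of the E proteins, before Tcf4. Ikzf1 held 49.1% ± 4.16 of the Ikaros family, with Ikzf3 next at 32.7 ± 9.48 FPKM. In the PU.1 subfamily Spib held 55.1%, 72.5% and 72.4%, before Sfpi1. Irf4 led the Irf family with 31.0% ± 5.48, followed by Irf8 at 53.0 ± 2.52 FPKM, and the 2 overlapped between libraries. Cebpa held 34.6% ± 0.790 of the Cebp family. Id2, an inhibitor of E proteins, stood at 1296 ± 347 FPKM and Id3 at 466 ± 63.7 FPKM, while Id4 was listed at 0. In the Bach pair the leader changed. Bach2, a transcriptional repressor that acts in B cells, stood at 21.7, 37.4 and 36.2 FPKM. Bach1 stood at 28.9, 22.4 and 30.7 FPKM, so it led in replicate 1.

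Signalling families had B cell and myeloid members side by side. Syk held 99.9% of the pair with Zap70, its T cell counterpart at 0.173 ± 0.157 FPKM. Blnk held 90.9% ± 1.69 of its adaptor family, before Lcp2. Lyn led the Src family with 44.9% ± 3.23, before Blk, the B cell member, at 49.0 ± 10 FPKM. Jak1 held 61.0% ± 4.81 of the Janus kinases, and Jak3, which is bound to Il2rg, stood at 8.07, 10.1 and 9.62 FPKM. Stat6 led the Stat family at 51.7 ± 5.99 FPKM, before Stat3. Stat5a and Stat5b, the factors that carry the interleukin-7 signal, stood at 11.2, 9 and 9.91 FPKM and at 8.98, 9.09 and 8.95 FPKM. Among the Toll-like receptor genes Tlr13 led at 107, 85.5 and 96.2 FPKM, before Tlr8.

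Lyz2 held 93.7% ± 0.717 of the lysozyme pair with Lyz1, at 1564 ± 187 FPKM. The pair is nearly identical in sequence, so reads may be split between them. The leader's lowest library was above every other member's highest in 6 of 7 cell cycle families and in all 9 chromatin families. Its share reached 90% in 1 and 4 of them, and E2f2 held 23.3% of its family. Ccnd3 held 75.5% of the D cyclins, Cdk4 90.6% of its pair with Cdk6, Ezh2 93.8% of the Ezh pair and Tet3 91.3% of the Tet family, where Tet1 stood at 0.0219, 0.0431 and 0.115 FPKM. Dnmt3a led the DNA methyltransferases at 91.1, 68.3 and 71.8 FPKM, above Dnmt1 at 47.0, 66.5 and 58.8 FPKM. In metabolism Hk3, a hexokinase of myeloid cells, held 69.3% of its family, and Pkm and Pgk1 held all of theirs, with Pklr and Pgk2 listed at 0. Leaders changed between libraries in 7 families with a leader of at least 1 FPKM: Bach, Nfkb and Rel, Cd79, lamin, E2f, ribosomal protein L22 and keratins.

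Developmental families were nearly empty. Of 39 Hox rows 20 were listed at 0 in every library, and Hoxb4, a gene of blood progenitors, was the sole one at 1 FPKM or more in all 3, at 2.53, 1.13 and 1.35 FPKM. Hoxa9, which progenitors also use, stood at 0, 0.119 and 0.0549 FPKM. All 4 MyoD family members were listed at 0.

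**Figure D5:**
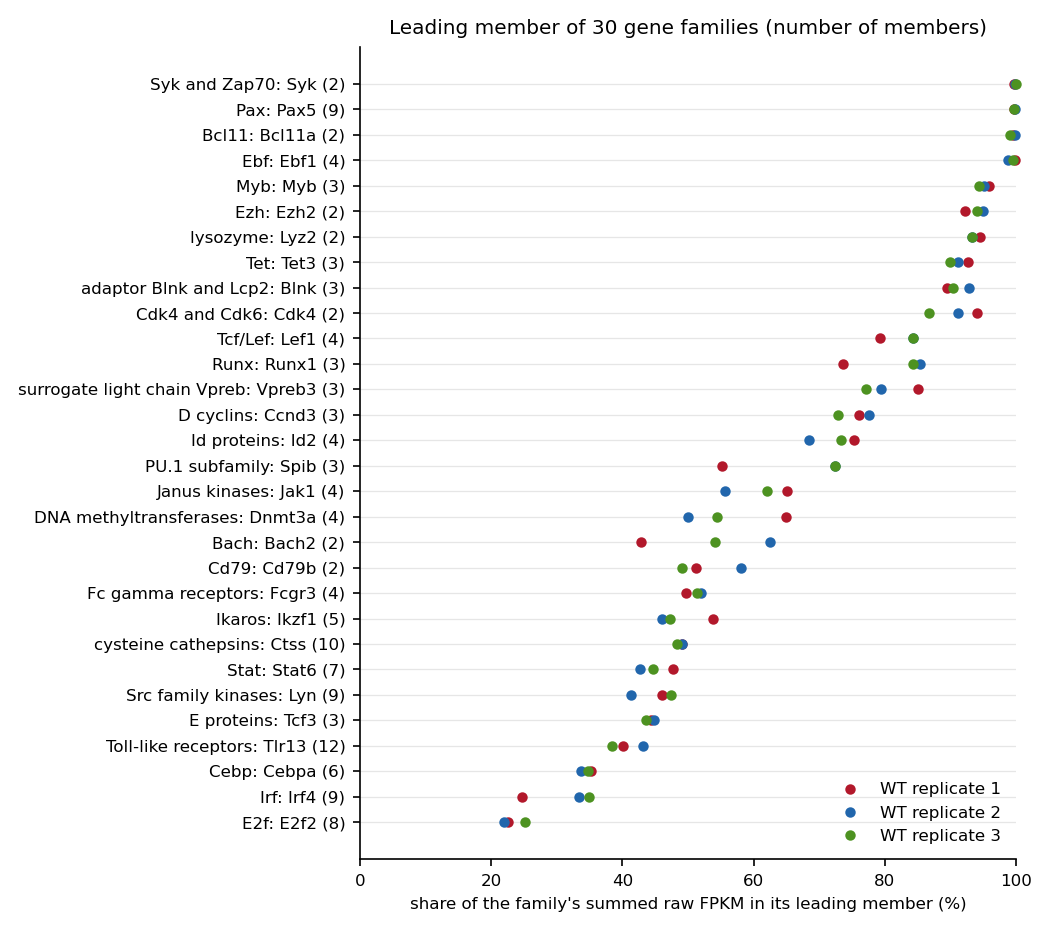
Share of the summed raw FPKM of 30 gene families that lies in the leading member, in percent, with 1 point per wild-type library; each family is followed by its leading member and, in brackets, its number of members. Syk, Pax5, Bcl11a and Ebf1 lie near 100% in all 3 libraries, and the E2f and Irf leaders lie under 50%.

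In some pairs a processed pseudogene row stood above its parent gene. Atp6v0c-ps2 stood at 1550, 1157 and 1348 FPKM against 27.7, 8.57 and 10.4 FPKM for Atp6v0c, a subunit gene of the vacuolar proton pump. Oaz1-ps stood at 340.2 ± 29.4 FPKM against 4.88 ± 1.05 FPKM for Oaz1. Reads of such near-identical copies can be assigned to either, so these rows are uncertain.

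Promoters of the genes at either end of the ranking differed in their CpG content. The share of CG pairs against that given by the C and G content, the CpG ratio, was taken over 300 bases around each start (250 before, 50 after) for 16280 protein-coding rows with a RefSeq promoter, 80.1% of them. Its median was 0.21 for 4947 genes listed at 0 in every library and 0.73 and 0.80 for means of 1 to 10 and 10 to 100 FPKM. For the 36 genes above 1000 FPKM it was 0.69. Levels between these are left out because under 80% of their genes had a promoter. The letters TATAAA, searched on both strands, were found for 14.6% of all these genes. The share was raised at both ends of the ranking, at 38.9% of those 36 genes and 26.0% of the genes listed at 0, against 8.34% and 7.69% at means of 1 to 10 and 10 to 100 FPKM. A match could lie anywhere in the 300 bases, so it does not show a promoter element in use. How far base composition alone sets these shares was not tested. This is a description across genes, which are not independent.

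The gene lists differed in the CpG content of their promoters. Over all genes with a promoter 49.6% reached a CpG ratio of 0.6. The share was 13.8% for genes listed at 0, and 68.4% and 78.7% for means of 1 to 10 and 10 to 100 FPKM. None of the 17 neutrophil genes with a promoter did so, nor did any of the 5 pre-B receptor genes, and their medians were 0.16 and 0.09. Of 15 B lineage transcription factors 7 reached it, as did 7 of 14 stem and progenitor genes, with medians of 0.59 and 0.61. Both are near the share over all genes. All 15 factors had means of at least 1 FPKM, however, and genes at means of 1 to 10 and 10 to 100 FPKM reached it more often. In the proliferation list 19 of 23 reached it. The macrophage, myeloid transcription factor and ribosomal protein lists are left out because under 80% of their genes had a promoter. The 250 bases before the start of 4 genes are shown to make this visible, with every CG in capitals: Lyz2, the highest gene (chr10:117282273-117282522, minus strand), Vpreb1 of the pre-B receptor (chr16:16869256-16869505, minus strand), the transcription factor gene Pax5 (chr4:44710695-44710944, minus strand) and the even, high Eef1a1 (chr9:78481725-78481974, minus strand). The sequences are from RefSeq, GRCm38.p6, written 5′ to 3′ on the gene's strand.
Lyz2: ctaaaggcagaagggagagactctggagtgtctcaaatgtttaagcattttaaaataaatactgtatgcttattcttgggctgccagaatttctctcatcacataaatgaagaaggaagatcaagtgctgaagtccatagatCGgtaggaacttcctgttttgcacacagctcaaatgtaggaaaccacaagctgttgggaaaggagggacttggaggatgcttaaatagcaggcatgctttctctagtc
Vpreb1: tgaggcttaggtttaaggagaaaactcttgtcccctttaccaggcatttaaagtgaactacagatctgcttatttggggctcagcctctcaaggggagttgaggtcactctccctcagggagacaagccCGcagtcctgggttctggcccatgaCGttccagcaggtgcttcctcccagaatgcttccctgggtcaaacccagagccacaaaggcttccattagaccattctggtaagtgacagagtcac
Pax5: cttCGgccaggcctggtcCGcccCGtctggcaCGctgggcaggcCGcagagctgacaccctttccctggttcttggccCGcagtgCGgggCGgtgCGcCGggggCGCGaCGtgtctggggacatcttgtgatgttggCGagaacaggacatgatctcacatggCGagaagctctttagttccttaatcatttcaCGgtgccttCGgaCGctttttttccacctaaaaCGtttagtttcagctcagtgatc
Eef1a1: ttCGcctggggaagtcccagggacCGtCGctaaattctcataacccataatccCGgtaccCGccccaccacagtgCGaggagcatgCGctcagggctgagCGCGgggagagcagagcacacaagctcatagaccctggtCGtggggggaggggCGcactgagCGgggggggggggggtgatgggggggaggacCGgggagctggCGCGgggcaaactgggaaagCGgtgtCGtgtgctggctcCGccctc
The stretch of Lyz2 holds 1 CG and that of Vpreb1 holds 2, against 19 in Pax5 and 18 in Eef1a1. Lyz2 and Eef1a1 were thus both among the 11 highest rows, with CpG ratios of 0.07 and 0.70 over the whole window. Vpreb1 and Pax5, whose mean levels were 114 ± 24.4 and 84.0 ± 23.0 FPKM, had ratios of 0.09 and 0.88.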

How the data were processed

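Wild-type libraries of pooled interleukin-7 marrow colonies were described. The authors deposited 2 tables of FPKM, a raw one and one they normalised further by a method that no source used here gives. Per the submitters' processing notes, HISAT and Cufflinks 2.0.0 were used with build mm9, while settings and annotation were not given. FPKM are not counts and the total number of reads is not given, so the sequencing depth is unknown, no interval from counting error is given, and the precision of low values cannot be stated.

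Columns were matched to samples by their names, and groups came from the labels. The raw deposited FPKM were used, and the normalised table as a check. In the check the ranks of rows above 1 FPKM had Spearman correlations of 0.99986 to 0.99998 with the raw ones, across genes, but the standing of the libraries against each other differed. Levels are per library, with mean and SD. A pseudocount of 0.1 was added where log2 was taken, so differences of low genes are understated. A row was called expressed at 1 FPKM or more, and silent under 0.1 FPKM, in every library. Rows matched RefSeq (GRCm38.p6) by symbol for 23129 of 23279 rows. That build is not the one of the files and served for names, host genes and promoters. The computation ran in Python 3.11.15 with pandas 2.3.3 and numpy 2.4.6 and was tested on simulated data.

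The gene lists and families were chosen with earlier results of these data known. Named genes were the 30 highest rows (1 is not reported here), up to 6 highest and 3 lowest members of each marrow lineage list, members of other tissues with a mean of at least 1 FPKM, leading and second family members and those at 0, and the 15 rows of largest SD among means of at least 5 FPKM. Others were chosen after their values were seen. The alternatives were the normalised table, leaving out each library, halved and doubled thresholds, another denominator, pseudocount and filter. The deviations of lists in the normalised table were added after the data were seen. No contrast between groups was made.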

Additional observations from a re-analysis of the deposited data

How the results depend on the processing

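Of 55 values recomputed under other settings for 10 described results, 54 stayed within the SD between libraries, within 1.5 times for counts, or, for the median SD between libraries, within 0.5 times the interquartile range over genes. The exception was the median SD between libraries, 0.20 on the log2 scale, which was 0.30 in the normalised table, and the cause was not tested. Leaving out 1 library at a time gave 0.13 to 0.19 for this SD, and without replicate 1 it was 0.13, lower by over 1.5 times. It also gave 10516 to 10574 rows at 1 FPKM or more, 36.9% to 40.4% of the sum in the 100 highest rows, 6.65% to 7.48% in the macrophage list and 1.22% to 1.41% in the lymphoid lists. The macrophage against pre-B receptor difference of medians ran from -0.83 without replicate 1 to -0.24 without replicate 2, against -0.52. Of 15 library standings of lists compared with the normalised table after the data were seen, that of replicate 1 for ribosomal protein genes reversed, from -0.04 to 0.16. Some counts moved by over 1.5 times. B lineage factors lowest in replicate 1 went from 14 to 5, and proliferation genes lowest in replicate 1 from 20 to 1. Ribosomal protein genes highest in replicate 2 went from 53 to 26. With 1 library left out, same leaders were counted in 90 to 92 families, and 63 to 67 genes of other tissues were under 0.1 FPKM. Counts of rows at 1 FPKM or more, or under 0.1 FPKM, in every library cannot fall when 1 is left out. Same leaders cannot be fewer either, unless a leader's mean falls under 1 FPKM. These leave-one-out counts therefore test little. In the normalised table, whose values are never 0, the count of genes of other tissues under 0.1 FPKM was 50, against 62. All rows under 0.1 FPKM numbered 7692 there, against 9028. Csf2 and Epo, listed at 0 in the raw table, had means of 0.0989 FPKM there, close to that threshold. Both counts, which are among the 54, therefore test little. No paired analysis was possible because a single group was described. Depth is unknown, so how far it limits the low genes cannot be given.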

Other observations

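Further gene groups were put together after their values were seen, so they are given as values only. All 24 genes of lipid handling and lysosomes stood at 1 FPKM or more in every library. All 24 were highest in replicate 1 in the raw table, against 38.5% of all rows whose mean reached 1 FPKM. They held 6.51%, 5.41% and 6.34% of the summed FPKM. Beside Fabp5, Ctsd and Gpnmb they included the fatty acid receptor gene Cd36 at 1252, 827 and 1138 FPKM, the apolipoprotein gene Apoe at 763, 512 and 542 FPKM, the lysosomal lipase gene Lipa at 701, 500.2 and 590 FPKM, and the lipid-sensing receptor gene Trem2 at 308, 207 and 226 FPKM. The cholesterol exporter gene Abca1 was lowest at 5.45 ± 0.639 FPKM.

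Of 17 growth factor genes 5 reached 1 FPKM in every library. The macrophage growth factor gene Csf1 stood at 14.7, 16.9 and 14.4 FPKM and Tnfsf13, which encodes the B cell factor APRIL, at 28.0, 18.9 and 24.6 FPKM. Csf2, Csf3, Il3, Il5, Epo and Thpo were listed at 0 in every library. Csf1 and its receptor gene Csf1r were therefore both present in these cultures, at means of 15.3 ± 1.37 and 193 ± 25.1 FPKM.

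Among 21 inflammatory genes 13 reached 1 FPKM. The chemokine gene Ccl2 stood at 177, 116 and 117 FPKM and Il1rn, the antagonist of interleukin-1, at 165, 84.9 and 112 FPKM. Il1b stood far below its antagonist, at 0.270, 0.531 and 0.861 FPKM, and Nos2 and Arg1, often used as opposite markers of macrophage activation, were both listed at 0. All 12 antigen presentation genes reached 1 FPKM. The class I gene H2-D1 stood at 1610, 1245 and 1296 FPKM, the invariant chain gene Cd74 at 236, 233 and 245 FPKM, and the class II gene H2-Aa at 256, 204 and 206 FPKM.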
